A study of Homo sapiens with 24 samples.

Results

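The genes described here make cholesterol and fatty acids, control that synthesis, or move sterol within and out of the cell. A fixed list, chosen with earlier results of these data known, held 38 of them. Members were the genes of that list with a probe set that carried their symbol and no other in the platform annotation. Of the 38, 35 had such a probe set and 34 were bright enough to be tested, among 11380 genes tested in all. The other tested genes served only as the background.

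RNA came from P3HR1, an established Burkitt lymphoma line of B-cell origin, whose cells carried the doxycycline-inducible vector pRTS1. In control cells the vector expressed green fluorescent protein (GFP) alone, and in miR-28 cells it expressed GFP together with the miR-28 precursor. Each vector was carried by 2 bulk populations, A and B, and each population was induced 3 times for 12 h and 3 times for 24 h. That gave 6 arrays in each of 4 groups and 24 Affymetrix arrays in all. Every array came from doxycycline-induced cells, at a dose the labels give both as 0.1 and as 1 ug/ml. No uninduced arrays were analysed here, so a difference between populations that was there before induction cannot be told apart from one that followed it. The arrays of a group were inductions of 2 populations, and p-values measure the spread between these arrays. The labels name no hybridisation batch, so a batch that followed the time point cannot be told apart from time.

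Cholesterol is built from acetyl-CoA through mevalonate, isoprenoid diphosphates, squalene and lanosterol. When sterol in the endoplasmic reticulum is low, the escort protein SCAP carries the transcription factors SREBP to the Golgi, where they are cut and freed to switch on the enzymes of sterol and fatty acid synthesis. INSIG proteins hold SCAP back when sterol is plentiful. The LXR receptors respond to oxysterols and switch on ABCA1, ABCG1 and MYLIP, which send sterol out of the cell or limit its uptake.

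From 12 h to 24 h of induction the control cells raised 11 members and lowered 1, ABCA1. The 11 were the early enzymes ACAT2, HMGCS1 and IDI1, the sterol enzymes SQLE, LSS and DHCR7, the regulators SREBF1 and INSIG1, and the fatty acid genes ACLY, FASN and SCD. Calls were made at an adjusted p under 0.05 in limma, over all genes tested. The 12 called members were 35.3% of 34, where 6.14% of all genes tested were called, 3.60% higher and 2.54% lower. Because the list was chosen with earlier results of these data known, such shares describe it and cannot test for an excess. In miR-28 cells 4 members rose, LSS, ACLY, ACACA and FASN, which is 11.8% of 34, where 4.66% of all genes were called and 2.65% were called higher. The median change of the 34 members was 0.19 on the log2 scale in control cells and 0.21 in miR-28 cells, against -0.00 and 0.00 over all genes tested.

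Between miR-28 and control cells 1 member was called. At 12 h 0 of 34 members were called between miR-28 and control cells, where 0.536% of all genes were called; 6 members (17.6%) had an unadjusted p under 0.05, against 9.67% of all genes. At 24 h the called member was ABCA1, which was higher in miR-28 cells; 5.35% of all genes were called and 2.60% were called higher. An unadjusted p under 0.05 was found at 24 h for 9 members (26.5%), against 18.8% of all genes. Without the control array A1 at 12 h, or without the miR-28 array A1 or A3 at 24 h, the count at 24 h was 2. The miR-28 effect did not pass the test for a difference between times in any member or any other gene (0%), and 3 members, FDPS, ACACA and LPIN1, had an unadjusted p under 0.05, which is 8.82% against 6.92% of all genes. The sign of that difference was kept under all 36 alternatives for FDPS, and under 35 of 36 for ACACA and for LPIN1. Values ran from -0.39 to -0.26 for FDPS, from -0.14 to 0.43 for ACACA and from -0.39 to 0.68 for LPIN1. The settings of block and population means leave this estimate as it is, so they could not change its sign. FDPS has a single probe set, so the choice of probe set could not change it either.

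The mature sequence of miR-28-3p in RefSeq (GRCh38.p14, chr3:188688834-188688855, plus strand) is shown because it is an arm of the precursor that set the groups apart. Capitals mark its seed, bases 2 to 8.
hsa-miR-28-3p: cACUAGAUugugagcuccugga

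Promoters of the genes that rose with time in control cells are shown because these genes moved together. RefSeq promoter windows of 300 bases, from 250 before to 50 after the gene start, were at hand for 30 of the 34 tested members, and for 8 of the 11 that rose. Each motif was searched on both strands, and the motifs were chosen after the values were seen. A gene counted where any of its windows held the motif. The CCAAT box, the site of the factor NF-Y, was in 22 of the 30 members with a window (73.3%). Of the 27305 genes with a window, tested here or not, 39.7% had it. It was in 7 of the 8 genes that rose and had a window. Stretches of 61 bases around the match nearest the start follow for the 6 of those genes whose first listed window held one. They are on the gene's strand (GRCh38.p14). The box is in capitals as CCAAT or, where it lies on the other strand, as its reverse complement.
INSIG1 (chr7:155297680-155297740, plus): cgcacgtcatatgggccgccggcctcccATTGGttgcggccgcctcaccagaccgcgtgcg
HMGCS1 (chr5:43313480-43313540, minus): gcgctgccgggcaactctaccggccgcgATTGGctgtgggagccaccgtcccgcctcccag
DHCR7 (chr11:71448409-71448469, minus): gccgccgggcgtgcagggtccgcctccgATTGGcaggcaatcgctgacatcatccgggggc
SCD (chr10:100347019-100347079, plus): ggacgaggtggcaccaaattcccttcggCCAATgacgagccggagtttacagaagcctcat
LSS (chr21:46228892-46228952, minus): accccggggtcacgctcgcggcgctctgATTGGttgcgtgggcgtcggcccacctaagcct
ACLY (chr17:41919013-41919073, minus): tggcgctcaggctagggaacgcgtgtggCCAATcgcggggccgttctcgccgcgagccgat

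In these windows the box begins 170 bases before the start of INSIG1, 100 before HMGCS1, 48 before DHCR7, 186 before SCD, 150 before LSS and 23 before ACLY. The sterol response element TCACNCCAC, the letters of the classic SREBP site, was in 1 member (SREBF2), or 3.33%, against 1.39% of all genes with a window. A looser form with 1 more free letter, TCACNCNAC, which takes in every match of the first, was in 5 members (16.7%) against 3.13%. The E box CACGTG was in 5 (16.7%) against 8.78%, with INSIG1 and LSS among them, and the SREBP-type letters CACCCCAC were in 2 (6.67%) against 3.39%. The longer E box TCACGTGA was in 1 member (3.33%) against 1.18% of all genes, and that member was INSIG1, which rose. Of the 8 genes that rose and had a window, 0 held TCACNCCAC, TCACNCNAC or CACCCCAC. These matches describe the letters of short windows and nothing more.

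**Figure D1:**
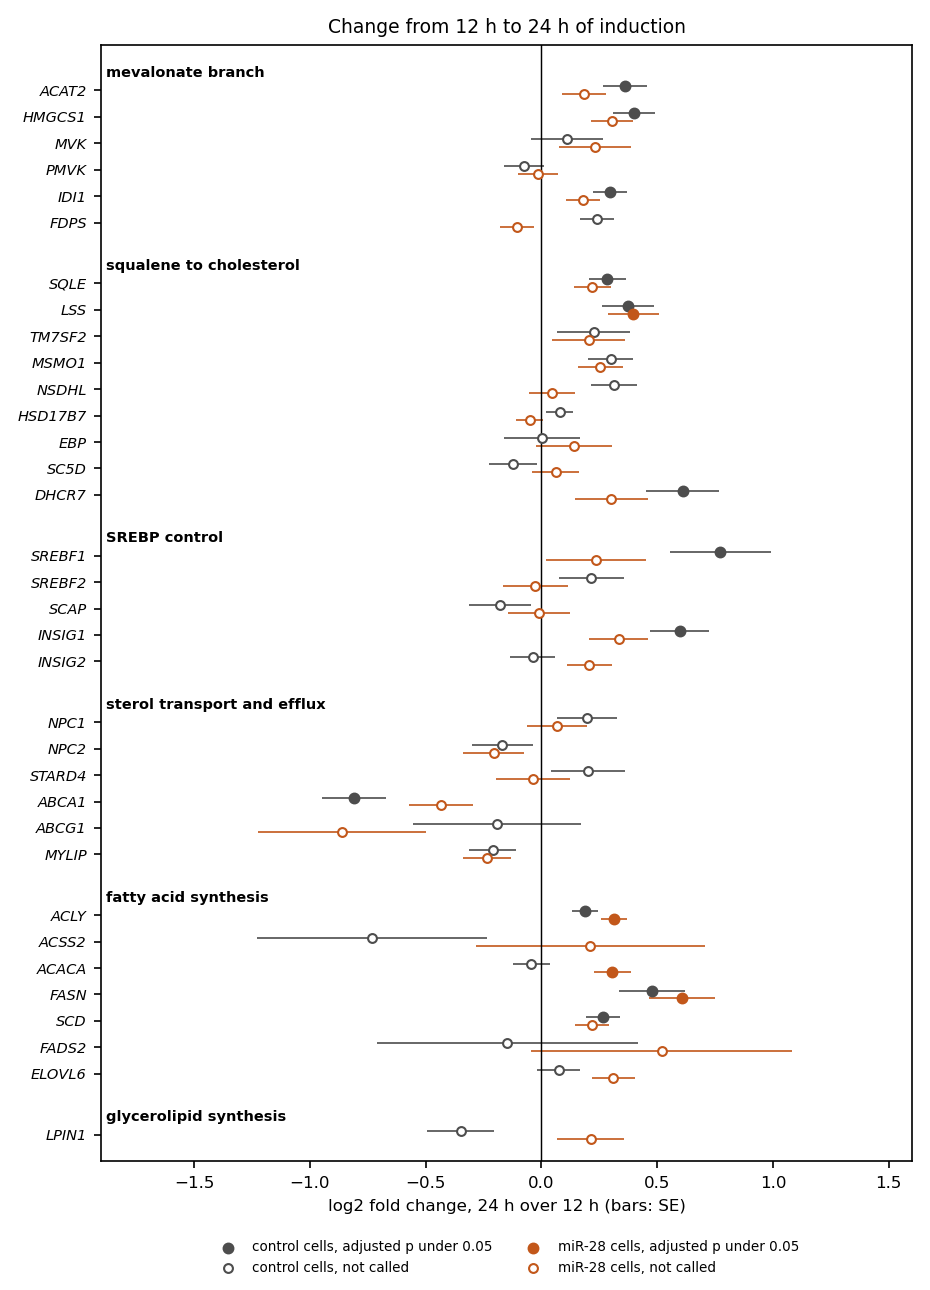
Change from 12 h to 24 h for the 34 tested members, ordered by role; the x axis is the log2 fold change of 24 h over 12 h, bars are standard errors, grey marks control cells and orange miR-28 cells, and filled points had an adjusted p under 0.05. Filled points to the right number 11 in control cells and 4 in miR-28 cells, and the one filled point to the left is ABCA1 in control cells.

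In the mevalonate branch 3 of the 6 tested genes rose with time in control cells, and the median of the 6 was 0.27. HMGCS1, which makes HMG-CoA, lay between 1236 and 1625 in control cells at 12 h (median 1397) and between 1591 and 2195 at 24 h (median 1878), as deposited intensity. Its lowest array at 24 h fell just under its highest at 12 h, so the groups overlapped, and the log2 change was 0.40 ± 0.09 (SE, n = 6 arrays a group, adjusted p = 0.0102), 1.32-fold. In miR-28 cells HMGCS1 lay between 1205 and 1568 at 12 h and between 1581 and 2032 at 24 h. Those groups did not overlap, and the change was 0.30 ± 0.09 with an adjusted p of 0.0588.

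ACAT2, the thiolase that joins acetyl-CoA units, lay between 2483 and 2812 (median 2536) at 12 h and between 2999 and 3729 (median 3330) at 24 h in control cells. All control arrays at 24 h were above all at 12 h, and the change was 0.36 ± 0.09 (adjusted p = 0.0232). In miR-28 cells ACAT2 ranged from 1976 to 3153 at 12 h and from 2706 to 3376 at 24 h. These groups overlapped, with a change of 0.18 ± 0.09 and an adjusted p of 0.301. Population means of ACAT2 in control cells went from 2616 to 3277 in A and from 2614 to 3453 in B, so both populations moved alike.

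IDI1, the isomerase of isopentenyl diphosphate, lay between 5191 and 6309 (median 6261) at 12 h and between 6379 and 8046 (median 7346) at 24 h in control cells. The groups did not overlap, and the change was 0.30 ± 0.07 (adjusted p = 0.0177). In miR-28 cells IDI1 lay between 4974 and 6611 at 12 h and between 6499 and 6924 at 24 h, a change of 0.18 ± 0.07 with an adjusted p of 0.178. Probe sets of IDI1 disagreed: in a fit of all probe sets a second gave 0.48 ± 0.10 in control cells, and the other two gave -0.27 ± 0.19 and -0.18 ± 0.14. The used probe set carries an x suffix, which marks probes shared with other sequences.

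Of the other genes of the branch, FDPS, which makes farnesyl diphosphate, had a change of 0.24 ± 0.07 in control cells (adjusted p = 0.0558) and -0.11 ± 0.07 in miR-28 cells. In control cells it lay between 5620 and 7376 at 12 h and between 6768 and 7975 at 24 h. The miR-28 arrays lay between 6136 and 7209 at 12 h and between 5429 and 7046 at 24 h. Among members FDPS had the smallest unadjusted p for the change of the miR-28 difference from 12 h to 24 h, -0.35 ± 0.10 (unadjusted p = 0.0032, adjusted p = 0.463). The mevalonate kinase MVK and the phosphomevalonate kinase PMVK had values of 0.11 and -0.08 in control cells, neither called. MVD, the decarboxylase that follows them, was below the brightness filter, with group medians between 33.9 and 104.4, and was not tested.

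**Figure D2:**
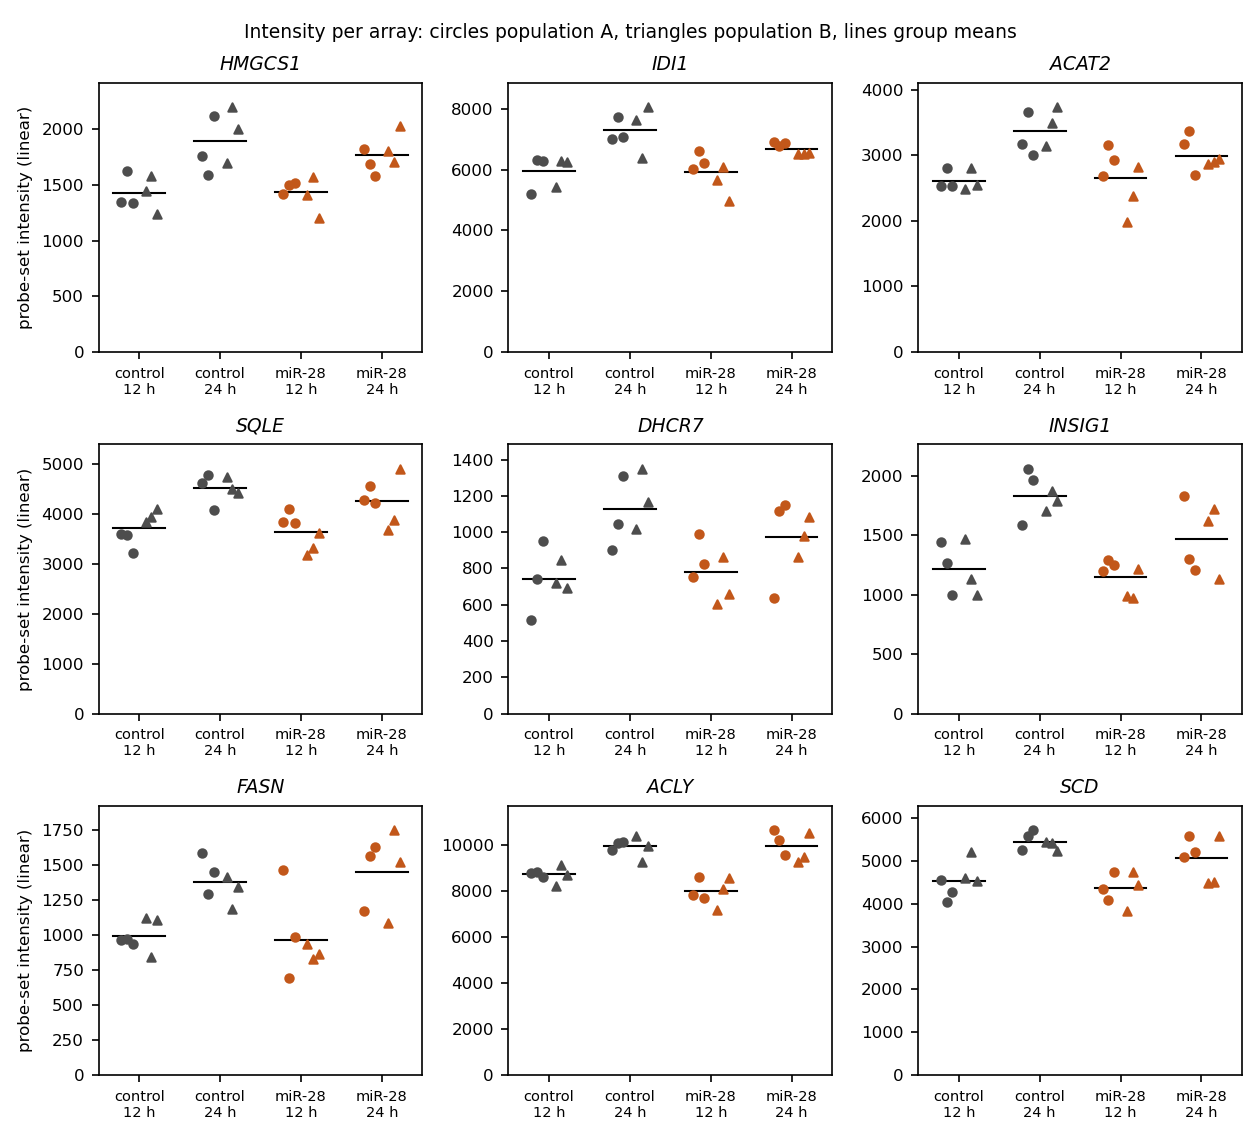
Deposited intensity (linear y axis from 0) on each array for 9 genes that rose with time in control cells; circles are population A, triangles population B, lines group means of 6 arrays, grey control cells and orange miR-28 cells. In control cells ACAT2, IDI1, INSIG1, FASN, ACLY and SCD have all 24 h arrays above all 12 h arrays, while HMGCS1, SQLE and DHCR7 overlap.

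From squalene to cholesterol 9 genes were tested, and 3 rose in control cells and 1 in miR-28 cells, with medians of 0.28 and 0.21. LSS, which closes the ring to lanosterol, lay between 837.5 and 1102 (median 901.6) at 12 h and between 1130 and 1377 (median 1201) at 24 h in control cells. Every control array at 24 h was above every one at 12 h, and LSS rose by 0.37 ± 0.11 (adjusted p = 0.0454), a call kept under 15 of 35 alternatives. In miR-28 cells it lay between 810 and 1206 at 12 h and between 999.1 and 1453 at 24 h, with overlap, and rose by 0.40 ± 0.11 (adjusted p = 0.0408). A second, dimmer probe set of LSS gave 0.09 ± 0.35 in control cells and 0.15 ± 0.35 in miR-28 cells, in the fit of all probe sets.

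DHCR7, the reductase of the last step, had the largest change among the called enzymes of the mevalonate and sterol steps in control cells. In control cells it lay between 517.1 and 948.8 (median 728.5) at 12 h and between 900.2 and 1349 (median 1104) at 24 h. The groups overlapped at their edges, and the change was 0.61 ± 0.16 (adjusted p = 0.0214), 1.53-fold. In miR-28 cells DHCR7 had a change of 0.30 ± 0.16 (adjusted p = 0.309), from a median of 789.4 to 1032. A second probe set of DHCR7, in the fit of all probe sets, gave 0.32 ± 0.12 in control cells and 0.34 ± 0.12 in miR-28 cells.

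SQLE, the squalene epoxidase, lay between 3228 and 4111 (median 3728) at 12 h and between 4077 and 4774 (median 4562) at 24 h in control cells, with a narrow overlap. It rose by 0.28 ± 0.08 (adjusted p = 0.0367), a call kept under 21 of 36 alternatives, and in miR-28 cells the change was 0.22 ± 0.08 (adjusted p = 0.129). Other probe sets of SQLE gave smaller values in control cells in the fit of all probe sets, 0.06 ± 0.15, 0.08 ± 0.18 and 0.08 ± 0.14. The sterol methyl oxidase MSMO1 and the dehydrogenase NSDHL came close in control cells, at 0.30 ± 0.10 (adjusted p = 0.0677) and 0.31 ± 0.10 (adjusted p = 0.0598). A second probe set of NSDHL gave -0.04 ± 0.15 in control cells in the fit of all probe sets, so the probe sets disagree there. The reductases TM7SF2 and HSD17B7, the isomerase EBP and the desaturase SC5D had changes between -0.12 and 0.23 in control cells, none called. The used probe set of HSD17B7 also carries the x suffix. FDFT1 and CYP51A1 were not analysed here.

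Among the 5 genes of SREBP control, SREBF1 and INSIG1 rose in control cells and none was called in miR-28 cells. INSIG1, both a brake on SCAP and a target of SREBP, lay between 996.1 and 1469 (median 1197) at 12 h and between 1586 and 2055 (median 1828) at 24 h in control cells. The groups were apart, and the change was 0.60 ± 0.13 (adjusted p = 0.00588), 1.51-fold. In miR-28 cells INSIG1 lay between 969.4 and 1288 (median 1208) at 12 h and between 1133 and 1828 (median 1461) at 24 h. There the groups overlapped, and the change was 0.33 ± 0.13 (adjusted p = 0.143). The test of the difference between the changes gave -0.26 ± 0.18 with a 95% interval of -0.64 to 0.11 (adjusted p = 0.834).

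SREBF1, which encodes the SREBP most tied to fatty acid genes, had low intensities. It lay between 177.2 and 292.7 (median 205) at 12 h and between 225.2 and 472.1 (median 382.7) at 24 h in control cells. The change was 0.77 ± 0.22 (adjusted p = 0.0355), 1.71-fold, and the groups overlapped. By population the means went from 202.6 to 440.2 in A and from 222.7 to 307 in B, so A moved further. In miR-28 cells the change was 0.24 ± 0.22 (adjusted p = 0.617), with A going from 272.9 to 245.2 and B from 241.2 to 360.8. The difference between the changes was -0.54 ± 0.31, with a 95% interval of -1.17 to 0.10 and an adjusted p of 0.769.

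The partner gene SREBF2, the escort SCAP and INSIG2 were not called in any comparison. In control cells their changes with time were 0.22 ± 0.14, -0.18 ± 0.13 and -0.04 ± 0.10. INSIG2 in miR-28 cells had a change of 0.21 ± 0.10 with an adjusted p of 0.247.

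In fatty acid synthesis 7 genes were tested, and 3 rose in each kind of cell. FASN, the synthase itself, lay between 838.6 and 1119 (median 967.5) at 12 h and between 1185 and 1585 (median 1378) at 24 h in control cells. Those groups did not overlap, and FASN rose by 0.48 ± 0.14 (adjusted p = 0.0492), a call kept under 12 of 35 alternatives. In miR-28 cells it lay between 694.4 and 1465 (median 897.2) at 12 h and between 1086 and 1744 (median 1539) at 24 h. One miR-28 array of population A at 12 h was high and made these groups overlap, and FASN rose by 0.61 ± 0.14 (adjusted p = 0.0167), 1.52-fold.

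ACLY, which supplies cytosolic acetyl-CoA from citrate, lay between 8200 and 9115 (median 8727) at 12 h and between 9258 and 10353 (median 10007) at 24 h in control cells. In miR-28 cells it lay between 7158 and 8609 (median 7941) at 12 h and between 9233 and 10610 (median 9870) at 24 h. Neither pair of groups overlapped. ACLY rose by 0.19 ± 0.06 in control cells (adjusted p = 0.046), a call kept under 14 of 36 alternatives. It rose by 0.31 ± 0.06 in miR-28 cells (adjusted p = 0.00251), kept under 33 of 36.

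SCD, the stearoyl-CoA desaturase, lay between 4031 and 5211 (median 4542) at 12 h and between 5241 and 5710 (median 5431) at 24 h in control cells. The groups were just apart, and SCD rose by 0.27 ± 0.07 (adjusted p = 0.0317); in miR-28 cells the change was 0.22 ± 0.07 (adjusted p = 0.0945). Its other probe sets gave 0.43 ± 0.18, 0.21 ± 0.24 and -0.01 ± 0.23 in control cells in the fit of all probe sets.

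ACACA, the carboxylase that makes malonyl-CoA, rose in miR-28 cells, from between 1336 and 1653 (median 1439) to between 1684 and 1945 (median 1834), with no overlap. The change was 0.31 ± 0.08 (adjusted p = 0.0299). In control cells the used probe set lay between 1471 and 1872 at 12 h and between 1443 and 1861 at 24 h, a change of -0.04 ± 0.08. A second probe set of ACACA gave 0.37 ± 0.10 in control cells and 0.24 ± 0.10 in miR-28 cells, so the probe sets disagree in control cells. The elongase ELOVL6 had a change of 0.31 ± 0.09 in miR-28 cells (adjusted p = 0.0546) and 0.07 ± 0.09 in control cells.

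ACSS2, which activates acetate, and the desaturase FADS2 were dim, with group medians between 78.3 and 144.9, and their standard errors for time were 0.49 and 0.56. FADS1 was not analysed here. LPIN1, a phosphatidate phosphatase of glycerolipid synthesis, had changes of -0.35 ± 0.14 in control cells (adjusted p = 0.164) and 0.21 ± 0.14 in miR-28 cells (adjusted p = 0.468). Over the 36 alternatives these changes ran from -0.41 to 0.24 in control cells and from -0.15 to 0.31 in miR-28 cells.

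Sterol transport and efflux went the other way in its median, -0.18 in control cells and -0.22 in miR-28 cells over 6 genes, with 1 gene called. ABCA1, the pump that hands cholesterol to lipid-poor apolipoproteins, lay between 1219 and 1842 (median 1427) at 12 h and between 656.9 and 1128 (median 853.6) at 24 h in control cells. All 6 control arrays at 24 h were below all 6 at 12 h, and ABCA1 fell by 0.81 ± 0.14 on the log2 scale (adjusted p = 0.00101), to 0.571 of its level at 12 h. In miR-28 cells it lay between 1364 and 2120 (median 1688) at 12 h and between 1123 and 1456 (median 1260) at 24 h. These groups overlapped, and the change was -0.43 ± 0.14 with an adjusted p of 0.0754.

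At 24 h ABCA1 was 0.58 ± 0.13 higher in miR-28 cells than in control cells (log2, adjusted p = 0.011). The highest control array, 1128, lay just above the lowest miR-28 array, 1123, so the groups touched. At 12 h the difference was 0.21 ± 0.13 (adjusted p = 0.694), and the difference between the times was 0.37 ± 0.20, with a 95% interval of -0.03 to 0.78 (adjusted p = 0.754). Control population A was below B, with means of 711.1 and 1003 at 24 h and 1343 and 1653 at 12 h. That population difference, A over B, was -0.39 ± 0.09 over both times (adjusted p = 0.101), and miR-28 means at 24 h were 1325 in A and 1212 in B. With population means as the unit, 2 against 2, the adjusted p of ABCA1 was 0.313 at 24 h and 0.179 for time in control cells.

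A second probe set of ABCA1 gave 0.52 ± 0.20 at 24 h and -0.40 ± 0.21 for time in control cells, in the fit of all probe sets. It ranged from 610.5 to 1093 in control cells and from 781.6 to 1486 in miR-28 cells at 24 h, with more overlap than the first. In miR-28 cells that probe set gave 0.19 ± 0.21 for time, where the first gave a negative value.

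**Figure D3:**
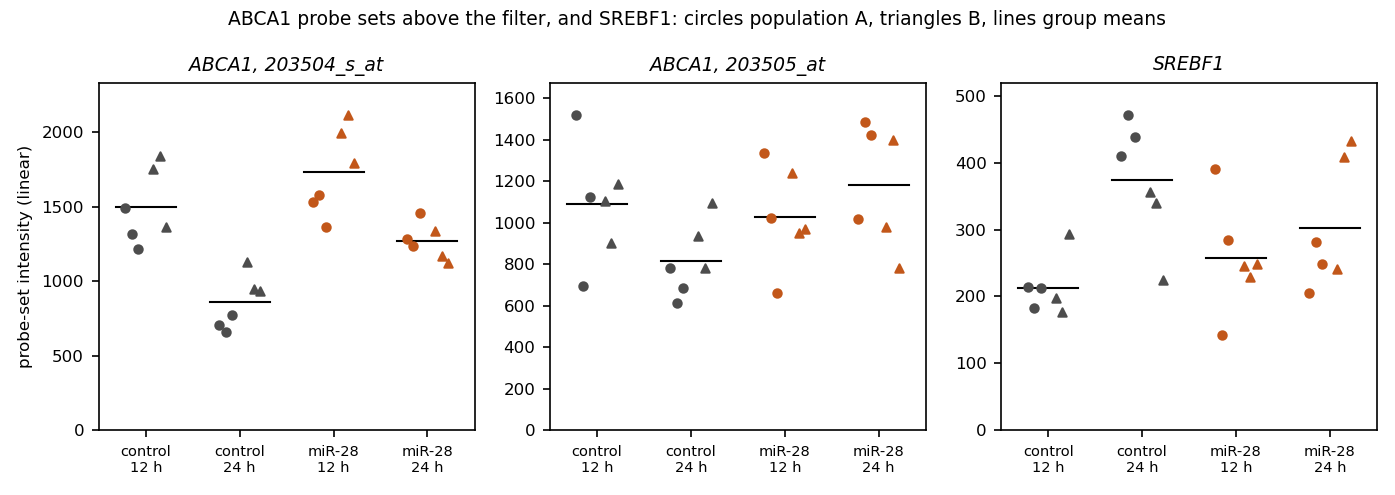
Deposited intensity (linear y axis from 0) per array of the ABCA1 probe sets above the filter and of SREBF1; circles are population A, triangles population B, lines group means of 6 arrays. Control arrays at 24 h lie between 656.9 and 1128 in the first ABCA1 panel, below the 12 h arrays, and SREBF1 in control cells is highest in population A at 24 h.

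ABCG1 and MYLIP were not called. MYLIP, a ligase that marks lipoprotein receptors for degradation, had differences between miR-28 and control cells of 0.27 ± 0.10 at 12 h (adjusted p = 0.34) and 0.25 ± 0.10 at 24 h (adjusted p = 0.164). ABCG1 was dim, with group medians between 79.3 and 131.2 and a standard error for time of 0.36. The lysosomal sterol carriers NPC1 and NPC2 and the transfer protein STARD4 had values of 0.20, -0.17 and 0.20 for time in control cells, none called.

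Between miR-28 and control cells at 24 h, the member of each other role group with the smallest p was also not called. FDPS differed by -0.23 ± 0.07 (adjusted p = 0.0612) and NSDHL by -0.20 ± 0.10 (adjusted p = 0.247). The second probe set of NSDHL gave 0.10 ± 0.14 at 24 h, in the fit of all probe sets. INSIG1 differed by -0.33 ± 0.12 (adjusted p = 0.121), with control arrays between 1586 and 2055 and miR-28 arrays between 1133 and 1828. ELOVL6 differed by 0.25 ± 0.09 (adjusted p = 0.106) and LPIN1 by 0.07 ± 0.14. At 12 h LPIN1 was the member with the smallest p, at -0.49 ± 0.14 (adjusted p = 0.165). That sign was kept under 35 of 36 alternatives, whose values ran from -0.57 to 0.27. Many of these could hardly change it: the settings of block and population means, and the runs without a 24 h array. The members' median difference was 0.03 at 24 h and 0.01 at 12 h, against 0.02 and 0.01 over all genes tested.

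**Figure D4:**
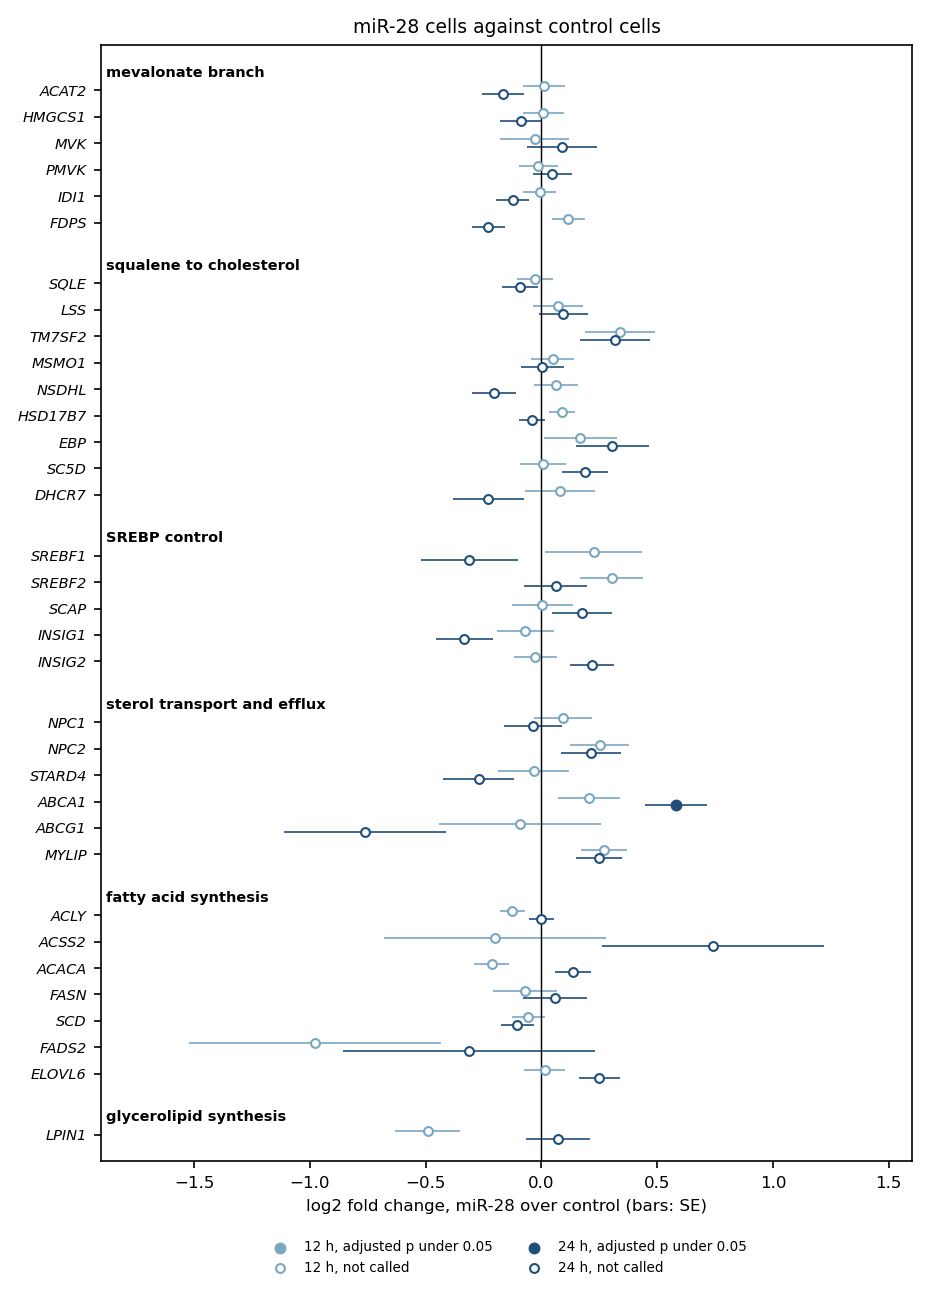
Difference between miR-28 and control cells for the 34 tested members, ordered by role; the x axis is the log2 fold change of miR-28 over control, bars are standard errors, light blue is 12 h and dark blue 24 h, and filled points had an adjusted p under 0.05. The one filled point is ABCA1 at 24 h, at 0.58.

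Changes with time in miR-28 cells came from arrays that the control changes did not use. Their standard errors and p-values shared an estimate of the spread with the control arrays, and probe sets were chosen over all arrays. All 11 genes that rose in control cells had a positive change in miR-28 cells, between 0.18 and 0.61, and 3 of them were called there. None of the 11 passed the test for a different change in the miR-28 cells, where the lowest adjusted p was 0.769. In 13 of 34 members the mean at 24 h was above that at 12 h in all 4 populations, where 16.5% of all genes did so. Of the 11 genes that rose in control cells 10 were above in both miR-28 populations (90.9%), the exception being SREBF1. Of all 410 genes called higher in control cells 87.6% were above in both, so the members were near that share. NPC2, ABCA1, ABCG1 and MYLIP were below in all 4, which is 11.8% of members against 16.02% of all genes. In control cells 7 members had all 6 arrays at 24 h above all 6 at 12 h, where 2.36% of all genes did; in miR-28 cells 3 did (ACLY, ACACA and HMGCS1), where 1.96% of all genes did.

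**Figure D5:**
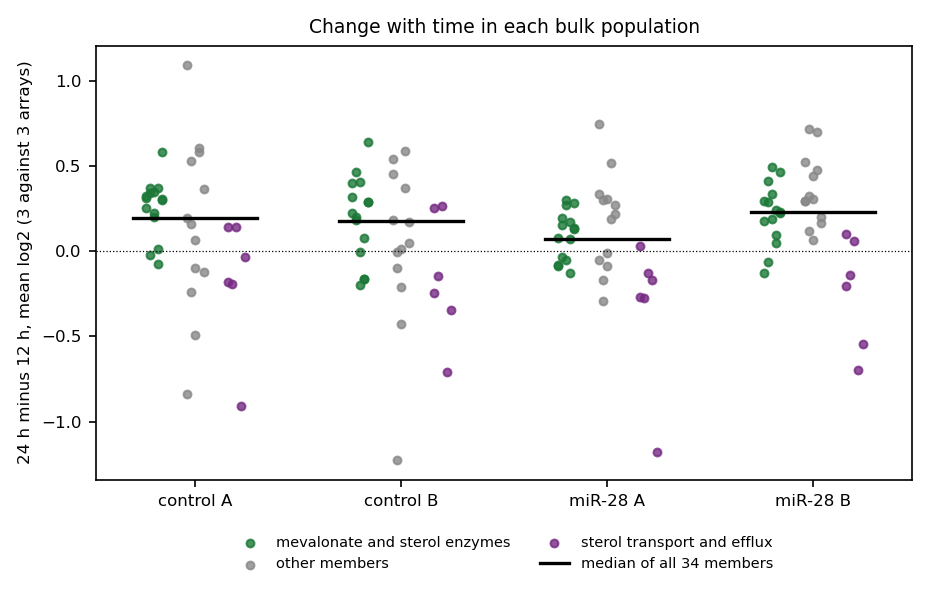
Mean log2 difference of 24 h minus 12 h in each bulk population (3 against 3 arrays), one point per tested member; green are the enzymes of the mevalonate and sterol steps, purple sterol transport and efflux, grey the other members, and the black line is the median of all 34. The medians are 0.20 in control A, 0.18 in control B, 0.07 in miR-28 A and 0.23 in miR-28 B.

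Leaving out single arrays changed the number of members called with time. Without one control array the count of 12 went to 6 (12 h A2), 6 (12 h A3), 4 (12 h B1), 7 (24 h A1), 5 (24 h A2) or 6 (24 h A3). In miR-28 cells the count of 4 went to 2 without the 12 h array A2, B2 or B3 or the 24 h array A2 or B3. Over all genes, leaving out 1 array gave 491 to 742 calls for time in control cells, against 699 with all arrays. For time in miR-28 cells it gave 350 to 573, against 530. With each array centred on its median, 5 members were called in control cells, 4 higher and 1 lower, and 9 in miR-28 cells, all higher. That centring also moved the split over all genes, from 302 higher and 228 lower to 529 and 57 for time in miR-28 cells, and from 296 and 313 to 395 and 149 between genotypes at 24 h. No member was called between populations A and B, with 0.0879% of all genes called in control cells and 0% in miR-28 cells; 3 members in control cells (ABCA1, SC5D and MYLIP, 8.82%) and 1 in miR-28 cells (ACAT2, 2.94%) had an unadjusted p under 0.05, against 8.32% and 5.04% of all genes.

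Genes of neighbouring pathways were counted in the same way. Lists of isoprenoid use, SREBP processing, sterol storage and LXR, fatty acid activation, glycerolipid synthesis and fatty acid oxidation held 68 tested genes. Of these 1 rose and 2 fell with time in control cells, at a median of 0.00; that is 4.41%, below the 6.14% of all genes called. FABP5, a fatty acid carrier, rose by 0.28 ± 0.08 (adjusted p = 0.0463). NR1H3, which encodes LXR alpha, fell by 0.53 ± 0.15 (adjusted p = 0.0367), from between 349.4 and 529.3 to between 229.8 and 397.1. CEPT1, a phospholipid synthesis enzyme, fell by 0.58 ± 0.08 in control cells (adjusted p = 0.000118) and by 0.36 ± 0.08 in miR-28 cells (adjusted p = 0.0103). DECR1, of fatty acid oxidation, rose in miR-28 cells by 0.46 ± 0.09 (adjusted p = 0.00674).

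Of the same 68 genes 2 were higher in miR-28 cells at 24 h, which is 2.94% and near the 2.60% of all genes called higher. LIPA, the lysosomal acid lipase that frees cholesterol from its esters, lay between 3281 and 4234 in control cells and between 4156 and 5244 in miR-28 cells, a difference of 0.38 ± 0.08 (adjusted p = 0.00347). COQ2, of ubiquinone synthesis, lay between 995.1 and 1275 in control cells and between 1251 and 1824 in miR-28 cells, a difference of 0.42 ± 0.09 (adjusted p = 0.00552).

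B-cell markers were bright in all arrays, with all 7 measured ones tested and MS4A1 at a median of 18559. Their summed intensity lay between 68778 and 73902 in control cells at 12 h and between 58540 and 64861 at 24 h; in miR-28 cells it lay between 64517 and 72050 and between 60020 and 64020. With time in control cells 2 of the 7 (28.6%) were called, both lower, where 2.54% of all genes were called lower. CD79B fell by 0.55 ± 0.07 and BLK by 0.46 ± 0.12, and the other 5 had values between -0.25 and 0.26. In miR-28 cells CD79B fell by 0.31 ± 0.07 and CD22 rose by 0.43 ± 0.11, where 4.66% of all genes were called. At 24 h CD79B was 0.24 ± 0.07 higher in miR-28 than in control cells, where 2.60% of all genes were called higher. The part of these shifts in the members' changes was not tested. T-cell, myeloid, fibroblast and epithelial, and liver markers had medians between 37.8 and 94.3, each taken over the genes of its list. The brightest of these genes was DCN, a fibroblast and epithelial marker, at 537.5. Above the filter were 1 of 6 T-cell, 2 of 5 myeloid, 3 of 6 fibroblast and epithelial and 1 of 4 liver markers. In these bulk arrays fewer cells of a type and less RNA per cell cannot be told apart. An ACTB log2 ratio of 3' to 5' probe sets above 1 is a sign of shorter RNA. It was seen on 1 miR-28 array at 12 h (B2, 1.05) and 1 control array at 24 h (B2, 1.59). Without both arrays, 7 members were called with time in control cells and 2 in miR-28 cells. Over all genes the calls went from 699 to 631 in control cells and from 530 to 413 in miR-28 cells.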

How the data were processed

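RNA was measured on 24 arrays. Intensity of each probe set, on a linear scale, was deposited after the authors' MAS5 processing, per the submitters' processing notes, whose version and settings are not given in the sources used here. Column means after 2% trimming were 500.07 to 500.08, and that scaling was kept. Precision depends on the number of arrays.

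The scale of analysis was log2(intensity + 8), so fold changes of dim genes are understated. Of 54675 probe sets, 62 controls and those with several symbols or none were left out of the gene tests; 41091 had 1 symbol, 1801 several and 11721 none listed. Symbols were updated through a RefSeq table, and 54 kept the older one. For each gene the probe set of highest mean was used, and the 11380 of 19775 genes above 6.108, the median of all non-control probe sets, were tested. The members had 84 probe sets, 71 of them above that level. Group means were fitted in R 4.3.3 by limma 3.58.1, and statmod 1.5.0 served the random block of bulk population (correlation -0.0229). Tests were two-sided, with Benjamini-Hochberg adjustment over all genes tested. A second fit compared populations A and B. The steps were tested on simulated data.

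Every member with a probe set is named. Called members are given per group, then the member of each role group with the smallest p between genotypes at 24 h; of the neighbouring lists only called genes are named. The members and lists were chosen with earlier results of these data known. Alternatives varied the pseudocount, filter, scaling, probe set, block, replicate block and unit of replication, and left out each array. Leaving out the arrays of high ACTB ratio was chosen after seeing the data.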

Additional observations from a re-analysis of the deposited data

Results flagged for a closer look

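In 6 of 140 member-by-group sets of 6 arrays, 1 array lay further from the rest than Dixon's 95% critical value allows; chance flags about 1 in 20 groups. Low arrays were EBP at 934.7 (control, 24 h, B2), MVK at 364.7 (control, 12 h, A2), LPIN1 at 504.3 (miR-28, 24 h, A2) and MYLIP at 1811 (miR-28, 12 h, B1). High arrays were INSIG2 at 815.6 (control, 24 h, B3) and SREBF1 at 292.7 (control, 12 h, B3). Of these genes only SREBF1 was called, and its high array lies at 12 h, against the direction of its rise.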

How the results depend on the processing

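ABCA1 kept its call between genotypes at 24 h and its fall in control cells under 34 of the 35 alternatives that tested it, each time lost with population means (2 against 2). In the remaining alternative, the probe set of largest SD, the probe sets of ABCA1, FASN, LSS and SREBF1 were below the filter and those genes were not tested. Calls for time in control cells were kept under 35 of 36 alternatives for INSIG1, 33 for HMGCS1, 32 for DHCR7, 31 for IDI1, 30 for ACAT2, 25 for SCD, 21 for SQLE and 14 for ACLY, and under 23 of 35 for SREBF1, 15 for LSS and 12 for FASN. For time in miR-28 cells they were kept under 34 of 35 for FASN and 20 for LSS, and under 33 of 36 for ACLY and 26 for ACACA. Of 34 members called between genotypes at 24 h, the count of 1 became 2 with a filter at a mean log2 value above 8 or quantile normalization, 3 with the mean of all probe sets, and 0 with the probe set of largest SD or population means; leaving out 1 array gave 1 to 2. For time in control cells the count of 12 became 3 with no filter, 5 with median centring, 6 with the mean of probe sets, 4 with the probe set of largest SD, 0 with population means and 7 without the arrays of high ACTB ratio, and leaving out 1 array gave 4 to 14. For time in miR-28 cells the count of 4 became 2 with no filter, 7 with the stricter filter, 9 with median centring, 1 with the probe set of largest SD, 0 with population means and 2 without the arrays of high ACTB ratio, and leaving out 1 array gave 2 to 5. IDI1 reversed to -0.27 in control cells with its probe set of largest SD, which is another probe set. At 12 h, between populations and for the difference between times, the count was 0 under every alternative run. Population means leave fewer degrees of freedom, and no filter adds genes to the adjustment. The cause of the change in count was not tested for these or for the other settings. With the induction label as a replicate block the counts were 11, 6 and 1 for time in control cells, time in miR-28 cells and genotype at 24 h. Over all genes that block gave 808, 632 and 617 calls, against 699, 530 and 609. Deviations of same-labelled arrays correlated between -0.094 and 0.069, and 0 of 24 pairs were over 0.1. Arrays of different labels were not compared in this way, so whether the labels pair arrays across groups was not settled. Over all genes, where 61, 609, 699 and 530 were called at 12 h, at 24 h and for time in control and miR-28 cells, no filter gave 30, 368, 364 and 207 calls, the probe set of largest SD 14, 248, 291 and 175, population means 0, and median centring 421 for time in control cells, where 280 were higher and 141 lower. Between control populations 10 genes were called, against 0 with no filter, median centring or without the arrays of high ACTB ratio, 30 with the stricter filter, 22 with the mean of probe sets and 2 with the probe set of largest SD.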
